A study of Homo sapiens with 6 samples.

Results

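The genes described here encode ribosome biogenesis and nucleolar factors, the proteins that turn pre-ribosomal RNA into the small (40S) and large (60S) ribosomal subunits. They were taken as a fixed list of 57 gene symbols, all of which were found among the 26334 genes of the deposited count table, and 30 were assigned to the small subunit, 20 to the large subunit and 7 to shared or nucleolar roles. RNA-seq was performed on MCF10DCIS.com, a human basal-like breast cancer cell line, in 2 groups of 3 libraries. Both groups had been infected with a lentiviral hairpin vector carrying TagRFP and a puromycin resistance gene, were selected with puromycin and were grown in DMEM/F12 with horse serum. The hairpin targeted luciferase in the control group (shLuc) and WDR5, the WD-repeat core subunit of histone H3 lysine 4 methyltransferase complexes, in the silenced group (shWDR5). The study's methods describe the WDR5 hairpins as used in a pool for this line, and neither uninfected cells nor the time between infection and harvest were given in the sources used here. The comparison addressed whether transcripts of the ribosome assembly line changed on WDR5 silencing, and at which subunit step.

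Ribosome assembly starts in the nucleolus, where RNA polymerase I makes one long precursor RNA. The small subunit is first built as a large particle on the 5' part of that precursor, the small subunit processome, from preformed modules named UtpA, UtpB and MPP10 that join with the U3 small nucleolar RNP. The large subunit follows through a series of pre-60S particles, in which the PeBoW complex of PES1, BOP1 and WDR12 acts in processing of the precursor between the 5.8S and 28S rRNAs. Many of these genes are known targets of MYC, which binds the DNA element called the E-box, and WDR5 is known as a MYC cofactor on chromatin.

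Library totals ranged from 38218108 to 57640167 counted reads, and the lowest count of any member in any library was 574 reads. WDR5 itself was read at 16.5, 15.2 and 16.1 RPKM (reads counted per kilobase of exon, relative to library size) in shLuc and at 7.34, 7.65 and 6.52 RPKM in shWDR5, which is 45.0% of the control level (log2 fold change -1.15, SE 0.074, adjusted p = 8.67e-07, edgeR quasi-likelihood test). All 9 markers of basal epithelial cells were present at 13.7 RPKM or more, and those of fibroblasts, blood and endothelium at 3.83 RPKM or less. Summed over each list, basal markers were at 3212 to 3521 RPKM in shLuc and 5819 to 6743 in shWDR5, fibroblast markers at 3.65 to 3.998 and 2.51 to 3.01, and blood and endothelial markers at 2.53 to 2.77 and 1.50 to 1.59. The part of these shifts in the values of the members was not tested. Nothing in the labels says that the libraries came from separate cultures, so p-values measure the spread between these libraries, which may be technical. RPKM is a share of the mRNA pool, and a change in total RNA per cell cannot be told apart from no change by these values.

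WDR5 silencing did not move the ribosome biogenesis list in one direction. Of the 57 members, 11 were downregulated, 18 were upregulated and 28 did not pass the test at an adjusted p of 0.05. These are 19.3% and 31.6% of the members, against 29.9% of the 16117 genes tested that were lower and 26.6% that were higher. Among the 8372 genes at least as abundant as the least abundant member, 34.5% were lower and 28.9% were higher. With libraries scaled by their totals alone the split was 12 lower and 13 higher, so that 52.0% of the calls were higher, against 62.1%. The share of members called, 50.9%, was thus below the 63.5% of genes of like abundance. The median log2 fold change of the members was 0.03, beside -0.01 for all genes tested, and with libraries scaled by their totals alone both moved down, to -0.03 for the members and -0.07 for all genes.

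The changes of the members were also small in size. The absolute log2 fold change was under 0.2 in 34 of the 57 members (59.6%), compared with 39.7% of genes of like abundance. The middle 50% of the members lay between -0.08 and 0.18 on the log2 scale, while the same range for genes of like abundance ran from -0.30 to 0.23. With the study's additional requirements of an absolute log2 fold change of at least 0.6 and over 0.5 RPKM, 2 members were lower (UTP20 and UTP15) and 2 were higher (RRP1B and IMP3). That rule called 10.5% of all genes tested lower and 7.9% higher.

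**Figure D1:**
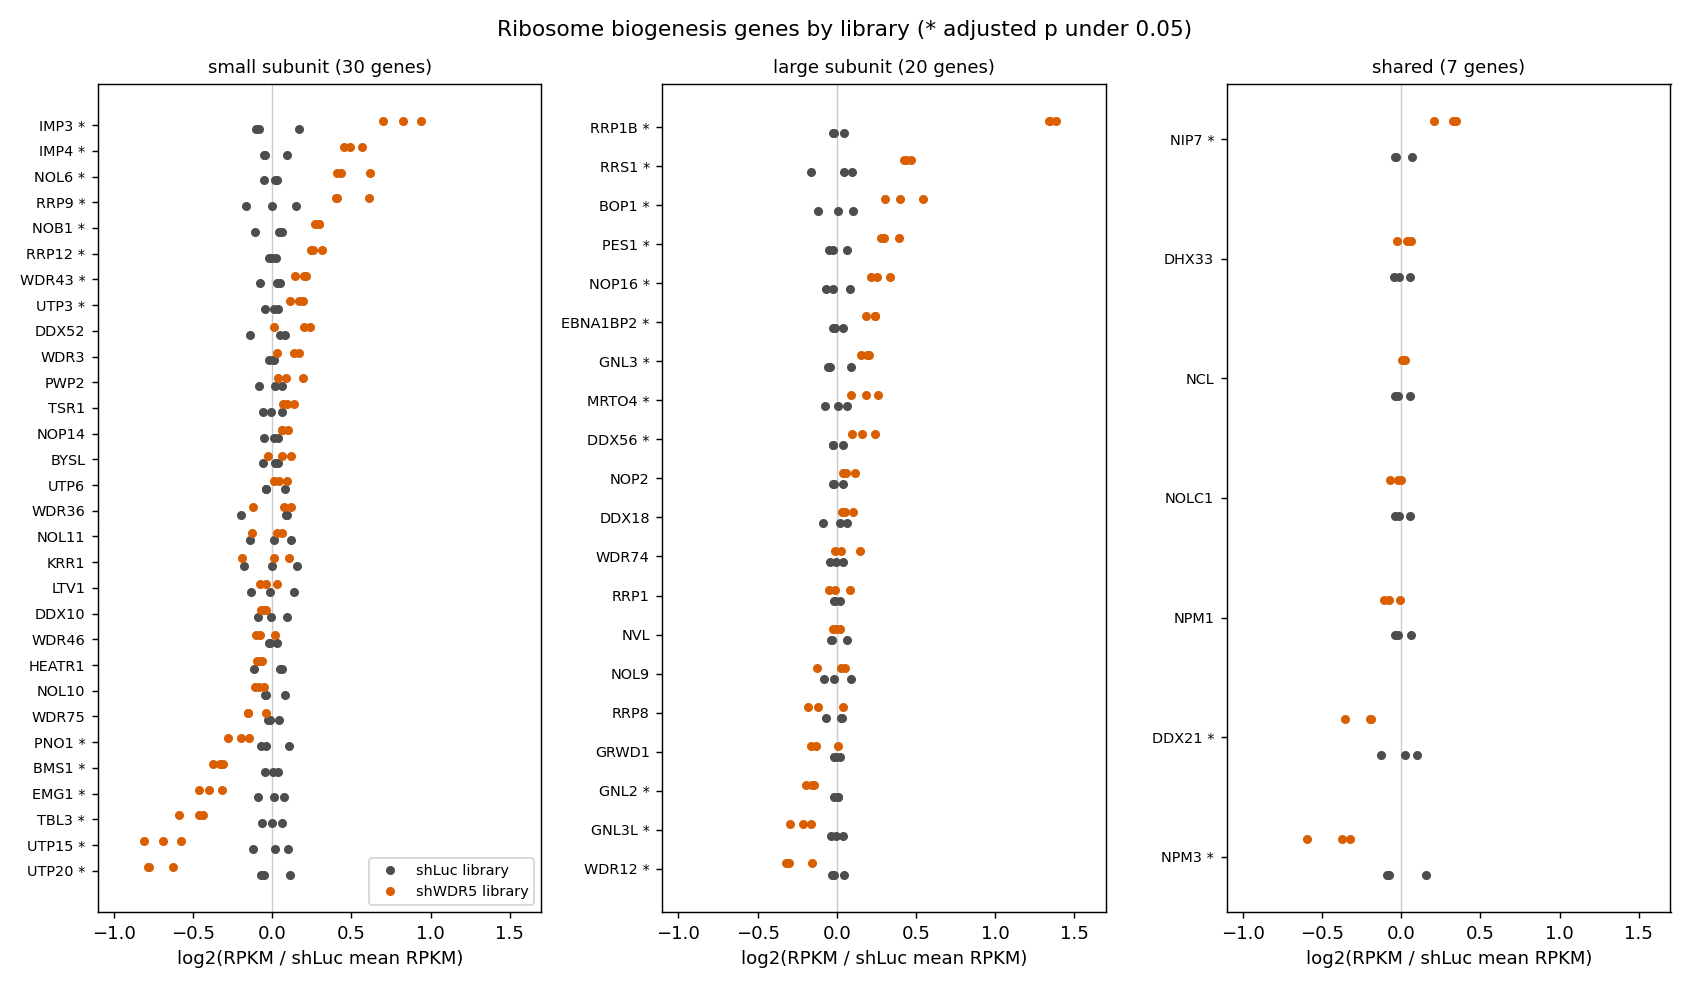
RPKM of each member in each of the 6 libraries, as log2 of the ratio to the mean of the shLuc libraries, with a panel per step and genes ordered by fitted fold change. Grey points are shLuc and orange points shWDR5 libraries, and most genes sit near 0 while RRP1B, IMP3, UTP15 and UTP20 stand farthest out.

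Of the 57 members, the libraries of both groups did not overlap in 13 that were lower in shWDR5 and in 22 that were higher. Over all genes tested, such separation was seen for 32.4% (lower) and 29.9% (higher). Of the 8372 genes of like abundance, it was seen for 3076 (lower) and 2651 (higher). Among those members, WDR75 and NOL10 on the lower side and NOP2, WDR3, TSR1 and NOP14 on the higher side, did not pass the test.

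**Figure D2:**
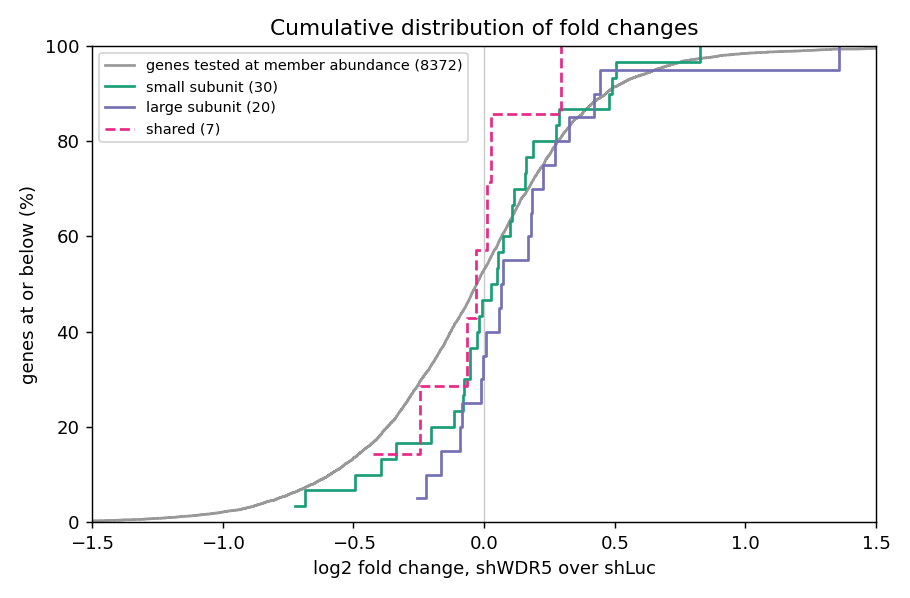
Cumulative share of genes (%) by log2 fold change, shWDR5 over shLuc, for the members of each step and for the 8372 genes tested that were at least as abundant as the least abundant member. The curves of the small and large subunit members rise more steeply around 0 than the grey curve, and the large subunit curve has no member below -0.26.

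By step, the small subunit had 6 members lower (20%), 8 higher (26.7%) and 16 not called of 30. The large subunit had 3 lower (15%), 9 higher (45%) and 8 not called of 20. The shared group had 2 lower (28.6%), 1 higher (14.3%) and 4 not called of 7. Of genes of like abundance, 34.5% were lower and 28.9% higher, and the difference between steps was not tested. Of 46 large subunit factors outside the list, given further below, 26.1% were lower and 28.3% higher. The median log2 fold changes of the small subunit, large subunit and shared members were 0.04, 0.07 and -0.03. Scaled by library totals, the small subunit median was -0.0185, beside -0.07 for all genes. It ranged from 0.0104 without shLuc replicate 1 to 0.0676 without shLuc replicate 3, and the large subunit median was 0.17 without the members of a debated step. Summed over the 20 large subunit members, levels were 466, 455 and 467 RPKM in the shLuc libraries and 536, 521 and 507 RPKM in the shWDR5 libraries, without overlap. The 30 small subunit members summed to 576, 565 and 584 RPKM in shLuc and to 623, 626 and 605 RPKM in shWDR5. Most of that difference lay in IMP3, with means of 31.7 and 56.1 RPKM, and IMP4, with 34.3 and 48.7 RPKM. As a share of all counts, the small subunit members overlapped between groups (0.174%, 0.175% and 0.183% against 0.171%, 0.177% and 0.171%). The shared group overlapped in summed RPKM, at 1613 to 1719 in shLuc and 1548 to 1638 in shWDR5. Its share of all counts was lower in every shWDR5 library than in any shLuc library. These shares were 0.360%, 0.359% and 0.386% in shLuc and 0.328%, 0.352% and 0.340% in shWDR5. Most of the reads of this group came from NPM1 and NCL, neither of which passed the test. Their means in shLuc and shWDR5 were 1120 and 1071 RPKM for NPM1 and 338 and 341 RPKM for NCL.

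Promoter sequences are shown for the members that changed and carry an E-box, since this is the element through which MYC contacts DNA. RefSeq promoter windows (GRCh38.p14, 250 bases before to 50 after the start site) were matched for 48 of the 57 members, in 54 windows. The 9 members without a window include the upregulated RRP1B, BOP1, RRS1 and RRP12, while every downregulated member had a window. The E-box letters CACGTG, which read the same on both strands, were found in 19 of the 54 windows (35.2%), in 7.26% of all 35116 windows and in 9.93% of windows of genes of like abundance. The ETS-type letters CCGGAAG, searched on both strands, were in 35.2% of member windows and 18.1% of windows of genes of like abundance. The letters TATAAA were in 5.56% and 5.66%. By gene, an E-box was found for 8 of the 14 upregulated members with a window, for 4 of the 11 downregulated and for 6 of the 23 not called. A share per gene over all genes tested was not counted. By window, the E-box was in 52.9% for upregulated, 33.3% for downregulated and 24% for members not called, beside the 9.93% above. The ETS-type letters were in 35.3%, 25% and 40% in that order. The difference between calls was not tested. Of the 20 E-box matches, 15 lay after the start site, within its first 50 bases. A match is a description of these letters and not a measured binding site.

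The 30-base stretches below hold the E-box in capitals and run 5' to 3' on the gene's own strand. Where a gene had more than 1 match, the one nearest to its own start site is shown. IMP4 had another match in the same window, at base -203 relative to the start. EBNA1BP2 had another at base -237 of a second window, which has a different start site. Neither of these is shown. The first 8 belong to upregulated members.
IMP4 (chr2:130342900-130342929, plus strand): ttctcccggaccCACGTGgaagcggcactc
NOL6 (chr9:33473894-33473923, minus strand): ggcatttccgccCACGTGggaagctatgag
RRP9 (chr3:51941892-51941921, minus strand): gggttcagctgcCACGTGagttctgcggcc
PES1 (chr22:30591880-30591909, minus strand): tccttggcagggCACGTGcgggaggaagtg
EBNA1BP2 (chr1:43172241-43172270, minus strand): tggcgctggagcgattcggtggCACGTGga
WDR43 (chr2:28894658-28894687, plus strand): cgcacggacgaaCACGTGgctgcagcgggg
GNL3 (chr3:52686026-52686055, plus strand): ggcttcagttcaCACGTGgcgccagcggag
MRTO4 (chr1:19251807-19251836, plus strand): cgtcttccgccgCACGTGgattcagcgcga
The remaining 4 belong to downregulated members.
UTP20 (chr12:101280083-101280112, plus strand): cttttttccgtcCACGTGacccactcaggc
DDX21 (chr10:68956604-68956633, plus strand): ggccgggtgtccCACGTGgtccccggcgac
PNO1 (chr2:68157885-68157914, plus strand): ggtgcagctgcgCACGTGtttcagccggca
GNL2 (chr1:37595917-37595946, minus strand): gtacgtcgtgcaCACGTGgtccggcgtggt
The same letters stood in windows of genes that rose and of genes that fell.

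In the UtpA module, which is the first to bind the precursor RNA and also takes part in rDNA transcription, UTP15 fell, WDR43 rose and WDR75, HEATR1 and NOL11 did not pass the test. UTP15 (chr5:72861566-72879202, hg19) was read at 4.80, 5.29 and 5.59 RPKM in shLuc and at 2.99, 3.51 and 3.24 RPKM in shWDR5. The groups did not overlap, and UTP15 in shWDR5 was at 62.3% of control (log2 fold change -0.68, SE 0.084, adjusted p = 6.29e-05). WDR43, the human UTP5, was at 31.5, 33.9 and 34.3 RPKM in shLuc and 36.7, 38.3 and 38.5 RPKM in shWDR5 (1.14-fold, adjusted p = 0.0154), and its call was lost in 3 of 14 alternative analyses (highest adjusted p = 0.0745). NOL11 was at 32.2, 35.6 and 38.4 RPKM against 32.4, 37.0 and 36.2 RPKM, with overlapping groups. HEATR1 had a log2 fold change of -0.08 and WDR75 of -0.11.

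In the UtpB module, TBL3 fell and the other 4 members did not pass the test. UTP18, a further UtpB subunit outside the 57 genes, also fell, from 35.8, 33.6 and 36.5 RPKM to 26.9, 29.9 and 26.3 RPKM (78.6% of control, adjusted p = 0.00120). TBL3 (chr16:2022064-2028751), the human UTP13, was at 22.5, 21.4 and 20.6 RPKM in shLuc and at 15.9, 15.6 and 14.3 RPKM in shWDR5. All 3 silenced libraries were below all 3 controls, at 71.0% of the control level (log2 fold change -0.49, SE 0.065, adjusted p = 0.000102). The members PWP2, WDR3, WDR36 and UTP6, all WD-repeat or helical-repeat scaffold proteins, had log2 fold changes from 0.03 to 0.12. UTP6, the most abundant of the module, was at 23.5, 23.5 and 25.6 RPKM in shLuc and 24.9, 25.8 and 24.4 RPKM in shWDR5.

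IMP3, IMP4 and UTP3, the 3 members assigned to the MPP10 module, which bridges the U3 RNA and the pre-18S RNA, passed the test as higher. MPP10 itself (MPHOSPH10), which is not among the 57 genes, did not pass, at 18.9, 21.0 and 23.9 RPKM in shLuc and 19.9, 20.9 and 21.1 RPKM in shWDR5 (log2 fold change -0.04, adjusted p = 0.682). IMP3 (chr15:75931426-75932664) was at 35.6, 29.5 and 29.8 RPKM in shLuc and at 60.7, 56.1 and 51.5 RPKM in shWDR5. This was the largest rise among small subunit members (1.77-fold, log2 fold change 0.82, SE 0.088, adjusted p = 2.37e-05). IMP4, an RNA-binding partner of IMP3, was at 36.5, 33.2 and 33.2 RPKM against 50.9, 48.3 and 47.0 RPKM (1.42-fold, adjusted p = 8.28e-05). UTP3, also known as SAS10, was at 26.4, 24.96 and 26.0 RPKM against 27.8, 29.6 and 29.1 RPKM (1.12-fold, adjusted p = 0.0326), and its call was lost in 6 of 14 alternative analyses (highest adjusted p = 0.154).

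Among the 11 other processome factors, 3 fell, 2 rose and 6 did not pass the test. UTP20 (chr12:101673905-101780397), a very large helical-repeat protein that wraps the particle, showed the largest fall of all members. It was at 10.7, 10.8 and 12.1 RPKM in shLuc and 6.51, 7.26 and 6.54 RPKM in shWDR5, or 60.5% of control (log2 fold change -0.72, SE 0.070, adjusted p = 1.23e-05). EMG1, the methyltransferase that modifies a pseudouridine of 18S rRNA, was at 37.5, 33.5 and 35.9 RPKM against 28.6, 27.1 and 25.8 RPKM (76.2% of control, adjusted p = 0.000672). BMS1, the GTPase of the processome, was at 79.2% of control (adjusted p = 0.000312). BMS1 has closely related pseudogene copies, so how its reads were shared out is uncertain.

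The processome factors that rose were NOL6 and RRP9. NOL6, the human UTP22, was at 12.7, 12.6 and 12.04 RPKM in shLuc and at 19.1, 16.8 and 16.6 RPKM in shWDR5 (log2 fold change 0.49, SE 0.067, adjusted p = 0.000132). RRP9, the U3-specific WD-repeat protein, was at 15.8, 14.2 and 12.7 RPKM against 21.8, 18.9 and 18.8 RPKM (1.39-fold, adjusted p = 0.00131). In both genes every silenced library exceeded every control library. NOL10, NOP14, WDR46, KRR1, and the RNA helicases DDX52 and DDX10 had log2 fold changes from -0.08 to 0.15 and did not pass.

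**Figure D3:**
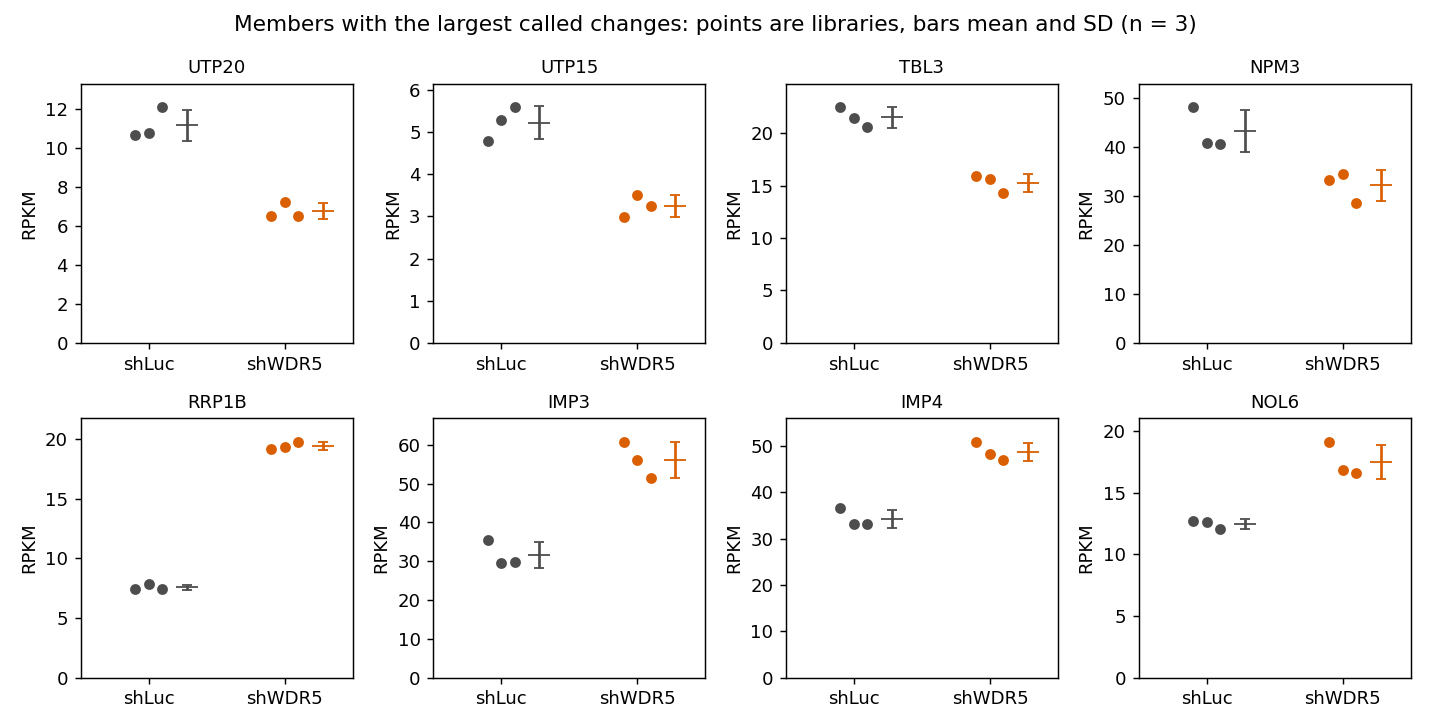
RPKM by library for the 4 members with the largest falls (UTP20, UTP15, TBL3, NPM3) and the 4 with the largest rises (RRP1B, IMP3, IMP4, NOL6) among those that passed the test, with the axes starting at 0. Points are single libraries and bars give mean and SD (n = 3), and the groups do not overlap in any of the 8 panels.

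Of the 6 late pre-40S factors, which accompany the particle to the cytoplasm, PNO1 fell, NOB1 and RRP12 rose, and LTV1, BYSL and TSR1 did not pass. NOB1 is the endonuclease that makes the 3' end of 18S rRNA, and PNO1 is its partner that shields this cleavage site. NOB1 was at 37.7, 37.2 and 33.6 RPKM in shLuc and 44.3, 44.3 and 43.6 RPKM in shWDR5 (1.22-fold, adjusted p = 0.00223). PNO1 was at 17.5, 17.9 and 19.8 RPKM against 15.2, 16.6 and 16.04 RPKM (86.8% of control, adjusted p = 0.0292), a call lost in 4 of 14 alternatives. RRP12, an export factor, was 1.21-fold higher (adjusted p = 0.00181).

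In the large subunit group, RRP1B stood apart from the other members. RRP1B (chr21:45079432-45115960), a nucleolar chromatin-associated protein that also acts as a targeting subunit of protein phosphatase 1, was at 7.44, 7.81 and 7.47 RPKM in shLuc. It reached 19.1, 19.3 and 19.7 RPKM in shWDR5, a 2.56-fold rise (log2 fold change 1.36, SE 0.054, adjusted p = 8.10e-08) that was the largest change in either direction over the 57 members. Its paralogue RRP1, on the same chromosome, was at 28.5, 27.9 and 27.8 RPKM against 29.8, 27.1 and 27.8 RPKM (log2 fold change 0.01, adjusted p = 0.917). No exon base of RRP1B was shared with another gene in the deposited gene models.

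All 3 PeBoW genes passed the test, but not in the same direction. PES1, which carries a BRCT domain, was at 28.5, 26.7 and 26.3 RPKM in shLuc and at 35.6, 33.4 and 33.1 RPKM in shWDR5 (1.25-fold, SE 0.058 on the log2 scale, adjusted p = 0.000832). BOP1 was at 27.5, 25.8 and 23.7 RPKM against 37.5, 33.8 and 31.7 RPKM (1.34-fold, SE 0.078, adjusted p = 0.00101). WDR12 was at 17.2, 17.1 and 18.0 RPKM against 14.0, 15.6 and 14.1 RPKM (83.6% of control, SE 0.066, adjusted p = 0.00659). The groups did not overlap in any of the 3 genes.

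Of the other pre-60S genes, 6 more rose and 2 fell. RRS1, needed for recruitment of the 5S RNP, was at 14.99, 17.3 and 17.9 RPKM in shLuc and at 22.7, 22.5 and 23.2 RPKM in shWDR5 (1.36-fold, adjusted p = 0.000527). NOP16 (1.21-fold, adjusted p = 0.00412), EBNA1BP2 (1.17-fold, adjusted p = 0.00400), the nucleolar GTPase GNL3 (1.14-fold), the stalk assembly factor MRTO4 (1.13-fold) and the helicase DDX56 (1.12-fold) were also higher. The adjusted p-values of GNL3, MRTO4 and DDX56 were 0.0170, 0.0352 and 0.0288, and these calls were lost in 3, 6 and 6 of 14 alternatives.

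GNL3, or nucleostemin, was the most abundant of the large subunit members, at 57.1, 56.6 and 62.4 RPKM in shLuc and 65.4, 67.7 and 67.0 RPKM in shWDR5. Its paralogue GNL3L went the other way, with 5.35, 5.62 and 5.46 RPKM in shLuc and 4.72, 4.89 and 4.46 RPKM in shWDR5 (85.6% of control, adjusted p = 0.00869). GNL2, a GTPase of the nucleolar pre-60S particle, was at 20.7, 20.3 and 20.7 RPKM against 18.5, 18.6 and 18.0 RPKM (89.3% of control, adjusted p = 0.0247), a call lost in 6 of 14 alternatives. The methyltransferases NOP2 and RRP8, the kinase NOL9, the AAA ATPase NVL with its partner WDR74, the helicase DDX18, the ribosomal protein chaperone GRWD1 and RRP1 did not pass, with log2 fold changes from -0.09 to 0.07.

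The most abundant nucleolar transcripts did not pass the test. NPM1, or nucleophosmin, was at 1102, 1091 and 1168 RPKM in shLuc and 1039, 1112 and 1061 RPKM in shWDR5 (log2 fold change -0.07, SE 0.053, adjusted p = 0.318). NPM1 has many processed pseudogenes, so its reads may have been partly discarded or shared. NCL, or nucleolin, was at 333, 329 and 352 RPKM against 339, 344 and 340 RPKM (log2 fold change 0.01, adjusted p = 0.849). NOLC1 and the helicase DHX33 also did not pass (log2 fold changes -0.03 and 0.03).

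NPM3, a smaller relative of NPM1, fell from 48.2, 40.9 and 40.7 RPKM to 33.4, 34.6 and 28.6 RPKM (74.4% of control, log2 fold change -0.43, SE 0.092, adjusted p = 0.00249). DDX21, a helicase that acts in rDNA transcription and rRNA processing, was at 59.0, 65.5 and 69.2 RPKM in shLuc and 50.4, 56.4 and 56.5 RPKM in shWDR5 (84.3% of control, adjusted p = 0.0128). Without shLuc replicate 3, the adjusted p of DDX21 was 0.0675. NIP7 was at 14.2, 14.2 and 15.3 RPKM against 16.8, 18.3 and 18.5 RPKM (1.23-fold, adjusted p = 0.00292).

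Ratios between partners and between paralogues do not depend on how libraries are scaled. The pairs were chosen after their values were seen and are given as a description with no test. The RRP1B to RRP1 ratio was 0.261, 0.280 and 0.269 in shLuc and 0.643, 0.711 and 0.710 in shWDR5. BOP1 to WDR12 was 1.60, 1.51 and 1.31 against 2.68, 2.16 and 2.24, and PES1 to WDR12 was 1.65, 1.56 and 1.46 against 2.55, 2.14 and 2.34. BOP1 to PES1 stayed close together, at 0.966, 0.965 and 0.898 against 1.05, 1.01 and 0.959, with overlapping groups. UTP15 to WDR43 went from 0.152, 0.156 and 0.163 to 0.0814, 0.0918 and 0.0842. TBL3 to PWP2 went from 1.31, 1.30 and 1.33 to 0.850, 0.894 and 0.852.

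**Figure D4:**
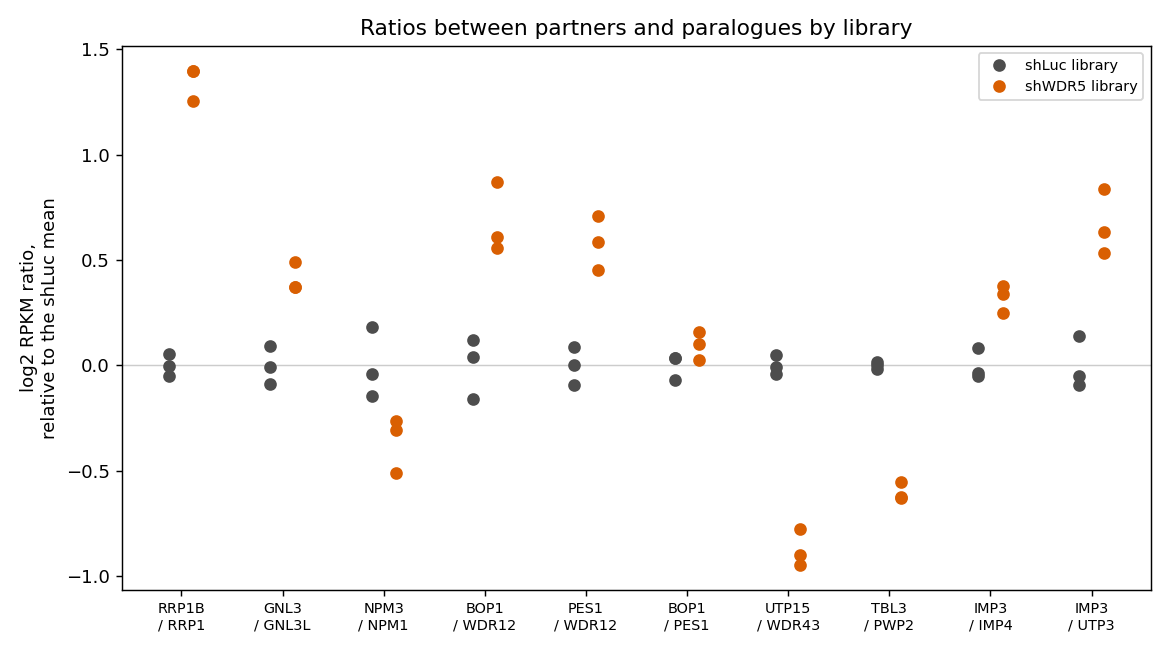
RPKM ratios of 10 gene pairs in each library, as log2 relative to the mean of the shLuc libraries, grey for shLuc and orange for shWDR5. The groups separate in every pair but BOP1 to PES1.

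Of the 57 members, 11 share exon bases with a gene on the opposite strand in the deposited gene models, and the library kit named in the labels does not mark strand. The shared part exceeds 5% of the exon length in 6 of them. It is largest in KRR1 (37.6%, with GLIPR1), HEATR1 (24.7%, with LGALS8) and TSR1 (23.5%, with SRR), none of which passed the test. NOP14 shares 367 bases with its antisense RNA NOP14-AS1, which was read in 604, 482 and 498 counts in shLuc and 1190, 1272 and 1062 in shWDR5 (log2 fold change 0.95, adjusted p = 2.76e-06), while NOP14 had a log2 fold change of 0.07. The part of these shared bases in the values of the members was not tested. Across the 57 members, exon length and log2 fold change had a Spearman rho of -0.20, beside -0.08 across all genes tested, as a description in which all points share the same 6 libraries.

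A further 78 ribosome biogenesis factors were listed from knowledge of the pathway, 32 for the small and 46 for the large subunit. Of these, 24 fell, 21 rose and 33 did not pass, and their median log2 fold change was -0.04. The shares, 30.8% lower and 26.9% higher, were close to the 29.9% and 26.6% over all genes tested. For the small subunit 12 fell (37.5%) and 8 rose (25%), and for the large subunit 12 fell (26.1%) and 13 rose (28.3%). Their median log2 fold changes were -0.04 and -0.03 in that order. The small subunit genes with the largest falls were DCAF13 (log2 fold change -0.85, adjusted p = 2.83e-06), the helicase DDX47 (-0.41, adjusted p = 0.000148) and the nuclease-related FCF1 (-0.39, adjusted p = 0.00176). DCAF13 shares 20.9% of its exon bases with SLC25A32 on the opposite strand. The largest rises were in the kinase RIOK3 (0.43, adjusted p = 0.000848), RCL1 (0.40, adjusted p = 0.000487) and the helicase DHX37 (0.38, adjusted p = 0.000786).

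Among the large subunit genes outside the list, the AAA ATPase SPATA5 was at 2.25, 2.65 and 2.34 RPKM in shLuc and 1.098, 1.20 and 1.30 RPKM in shWDR5 (log2 fold change -1.01, adjusted p = 7.26e-06). The nucleolar GTPase GTPBP4 had means of 40.7 RPKM in shLuc and 23.5 RPKM in shWDR5 (-0.79, adjusted p = 5.56e-06), and NOL12 fell by 0.73 on the log2 scale (adjusted p = 5.02e-05). PPAN (log2 fold change 0.90, adjusted p = 0.000389), CCDC86 (0.53, adjusted p = 7.26e-05) and SURF6 (0.46, adjusted p = 0.000163) rose. PPAN was counted at 1.05 RPKM in shLuc, and 87.6% of its exon bases are shared with the readthrough gene PPAN-P2RY11, so its level is uncertain.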

How the data were processed

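Poly(A) RNA of 6 libraries was sequenced, and the submitters' processing notes name TopHat2 2.1.0, featureCounts, edgeR 3.2.2 and hg19, without the role of each. The values deposited by the authors are raw read counts per gene with exon coordinates and lengths. A second deposited table holds the authors' own edgeR comparison (fold changes, p-values) and was not used. Groups came from the sample titles. Genes were filtered with filterByExpr, scaled by TMM and tested with edgeR 4.0.16 (quasi-likelihood, R 4.3.3), with Benjamini-Hochberg adjustment over the 16117 genes tested. Every adjusted p is from this test unless another is named. SE is the absolute log2 fold change over the square root of F. RPKM used TMM-scaled library sizes and the deposited exon lengths. Alternatives were DESeq2 1.42.0, limma 3.58.1 voom, other scalings and filters, a replicate block, leaving out each library, and the study's call rule. Tests were run on simulated data first.

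The members and lists were chosen with earlier results of these data known. Step assignments came from knowledge of the pathway. Values per library were given for the most abundant member of each sub-step (mean over all libraries), for the called members with the largest fall and rise there (the second as well in sub-steps of over 10 members), and for the 8 largest rises. NOL11, RRP1, NCL, DDX21, UTP18 and MPHOSPH10 were added after their values were seen. Of the 78 further factors, the 3 largest falls and rises per subunit were named. Replicates of a group differed by more than counting noise (chi-square per degree of freedom 7.15 to 18.2), so none was counted as a duplicate. Library totals were 38218108 to 57640167 counts.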

Additional observations from a re-analysis of the deposited data

How the results depend on the processing

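Under the study's call rule, 2 members stayed lower and 2 higher, and that rule is not among the 14 alternative analyses. Of the 29 member calls, 21 (13 higher, 8 lower) held in all 14 of these, and no member call reversed. The 8 that were lost in at least one were UTP3, WDR43, GNL2, GNL3, PNO1, DDX21, DDX56 and MRTO4. Each was lost on leaving out at least one library (DDX21 without shLuc replicate 3 only). Among the 28 members not called, WDR75 passed with library totals, WDR3 and PWP2 with the replicate block, and DDX52 with upper quartile scaling, with the replicate block and without shWDR5 replicate 1.

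Scaling by library totals alone gave median log2 fold changes of -0.029 for all members, -0.0185 for the small subunit, 0.012 for the large subunit and -0.087 for the shared group, with 13 members higher and 12 lower (52.0% of calls higher, against 62.1%). Upper quartile scaling gave medians of 0.0652, 0.0757 and 0.11 for all, small and large subunit members. Leaving out members of a debated step raised the large subunit median to 0.17 and left 0 shared members higher. With single libraries left out, the small subunit median ranged from 0.0104 to 0.0676, the median of all members from 0.020 (without shLuc replicate 2) to 0.061 (without shLuc replicate 3) and the shared members called lower from 1 (without shLuc replicate 3) to 2.

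The study's call rule left 1688 genes lower and 1274 higher, 2 members lower and 2 higher (small subunit 2 and 1, large subunit 0 and 1, shared 0 and 0), and of the other factors 1 and 0 for the small and 6 and 1 for the large subunit.

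Replicate numbers are shared by both groups, but deviations from the group means correlated at 0.37, 0.04 and 0.12 for same-numbered libraries, so the numbers were not taken as pairs, and not every library correlated best with its own number. The fit with the replicate block called 21 members higher and 11 lower.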
